A study of Saccharomyces cerevisiae with 7 samples.

Results

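The 10 genes described here encode the canonical histones of budding yeast, its linker histone and its centromeric histone. They were taken by their symbols: HTA1 and HTA2 for H2A, HTB1 and HTB2 for H2B, HHT1 and HHT2 for H3, HHF1 and HHF2 for H4, HHO1 for H1, and CSE4 for the H3 variant of the centromere, CENP-A in other organisms. Of these, 9 had a probe that carried their name, 1 probe each, among 5371 named genes with values. HTA2 had no such probe, so 7 of the 8 core histone genes were measured and nothing is reported of HTA2.

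The core histones form the protein spool of the nucleosome, with H1 bound to the linker DNA. Each core histone of yeast is made from a pair of genes, and each gene lies beside a gene of its partner histone and is transcribed away from it, H2A with H2B and H3 with H4. Their transcription peaks around S phase. It is driven by the factors SBF and Spt10 and held back outside S phase by the HIR complex, Asf1 and Rtt106. Cse4 takes the place of H3 at the centromere, where the kinetochore is built. SWR-C, the remodelling complex to which Arp6 and its catalytic subunit Swr1 belong, exchanges H2A in nucleosomes for the variant Htz1.

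RNA levels were compared on 7 dual-colour expression arrays, each of which set a W303 deletion strain, labelled with Cy5, against W303 wild type, labelled with Cy3. There were 4 arrays for arp6Δ and 3 for swr1Δ, and none with the dyes swapped. The labels give growth in YPD at 25 °C to an OD of 1 with no treatment, and a purification on oligo(dT), whereas the study's array methods name another temperature and RNA reagent. Those methods speak of independent cultures, but whether any of the 4 arp6Δ arrays share one is not stated. The sources used here do not say which of the study's arp6Δ and swr1Δ strains was hybridised, nor whether it was 1 clone.

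Each value is a log2 ratio with the deletion strain in the numerator, so 0 means no difference and 1 means a 2-fold higher level in the deletion strain. The arp6Δ arrays were the wider ones, with 15.8% to 40.2% of their values beyond 2-fold, the highest share being on replicate 1, against 1.43% to 5.50% in swr1Δ. Replicates 1 and 2 of arp6Δ resembled each other (r = 0.67 across 5593 features), as did replicates 3 and 4 (r = 0.85), while r between these pairs was 0.26 to 0.37. The deleted genes read below wild type throughout, ARP6 at −1.28 to −0.63 on the arp6Δ arrays and SWR1 at −1.02 to −0.42 on the swr1Δ arrays. The smallest falls were on arp6Δ replicate 4 and swr1Δ replicate 1. With deleted genes this near wild type, a ratio may not give the full size of a change. The reason was not tested. All arrays share the wild type as their second channel, so the test of a mutant is its ratio against 0. That test cannot separate a fixed dye effect. If the arrays share the same wild-type RNA sample, it also takes no account of how the wild type itself varies.

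A fault in the table of values touches 2 of the genes, and 4 more could not be checked for it. In parts of the arp6Δ columns the values of replicates 1 and 2, and in some stretches of all 4, stand a few rows away from the gene they belong to. The stretches were found by setting each gene's ratios against the mean that the study lists for it, for the part of the genome that its list covers here. Of 1700 checked named genes with 4 arp6Δ values, 661 (38.9%) were displaced. Over these, the mean of replicates 1 and 2 had a correlation of 0.10 with the mean of replicates 3 and 4, against 0.43 over the 1039 genes in place. Shares and tests over all features that use arp6Δ arrays include displaced values unless these are said to be left out. Leaving out those found moved the share passing as higher in arp6Δ from 2.09% to 2.82%. HTA1 and HTB1 lie in such a stretch, so the numbers listed for them on arp6Δ replicates 1 and 2 belong to other genes, and 2 arrays remain for each. HTB2, HHT1 and HHF1 were in place. CSE4, HHT2, HHF2 and HHO1 lie outside the part that could be checked. No gene left blank on replicates 1 and 2 alone, as was found at the ends of such stretches, follows any of these 4 genes on its chromosome arm, whereas the first one after HTA1, RTN1, comes 7 genes later. Such a blank may not mark the stretches in which all 4 columns are displaced, so these 4 genes stay unchecked.

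The H4 genes read above the H3 genes on the arp6Δ arrays, a contrast picked out after the values had been seen and not tested. Both H4 genes were above wild type on all 4 arp6Δ arrays, with means of 2.89-fold for HHF1 and 1.85-fold for HHF2, while the means of both H3 genes lay near 0. Of these genes, HHF2 and HHT2 could not be checked for displaced values. Neither H4 gene passed the test on the arp6Δ arrays alone. Both passed when all 7 arrays were fitted together, where 13.2% of all features passed as higher. In swr1Δ, HTB2 passed at 1.35-fold and CSE4 at 0.72 of the wild-type level. These were 2 of the 9 measured genes, where 22.2% of all 5879 features passed. In RNA of whole cultures, a different share of cells in S phase and a different RNA level per cell cannot be told apart. Each test was limma on log2 ratios, two-sided, with Benjamini-Hochberg adjustment over all 5879 features and a threshold of 0.05.

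**Figure D1:**
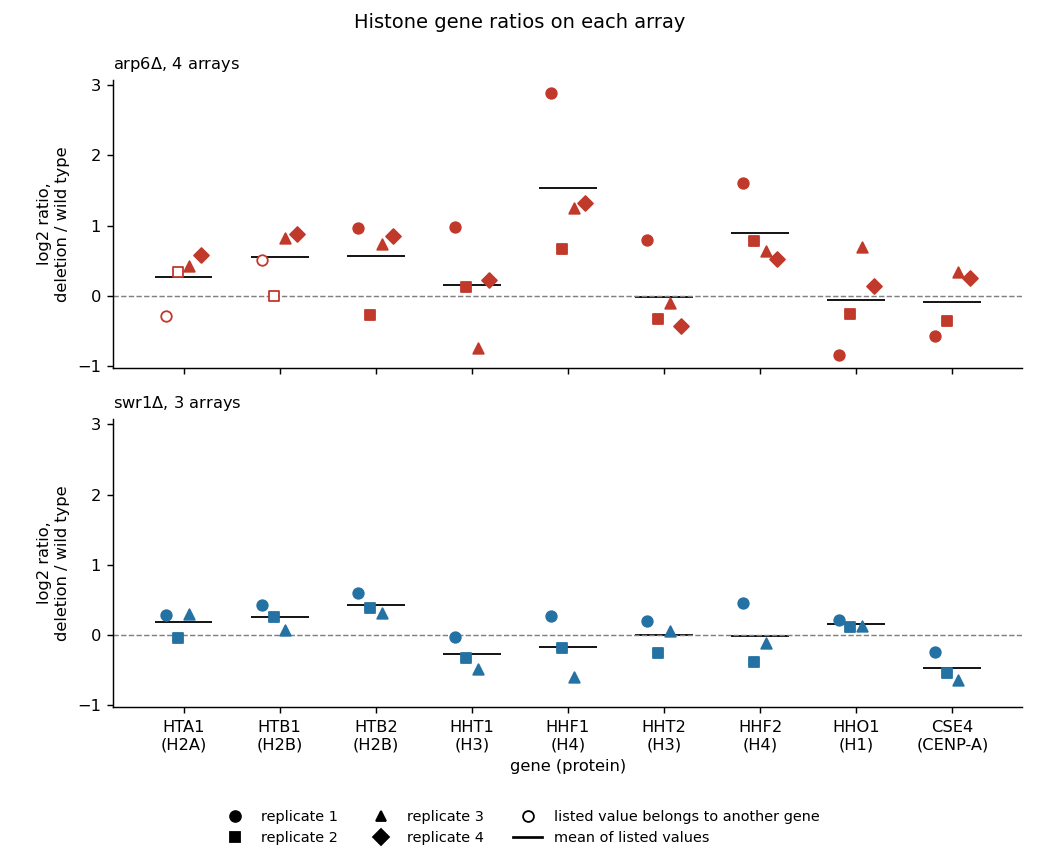
Log2 ratio of deletion strain over wild type (y axis) for the 9 measured genes (x axis) on each array, arp6Δ above and swr1Δ below, with 1 symbol per replicate and a line at the mean of the listed values. Open symbols are the listed values of HTA1 and HTB1 that belong to other genes. The arp6Δ values of HHT2, HHF2, HHO1 and CSE4 could not be checked. The H4 genes HHF1 and HHF2 sit above 0 on all 4 arp6Δ arrays, and CSE4 sits below 0 on all 3 swr1Δ arrays.

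HTA1 (YDR225W), which encodes H2A, read 0.42 and 0.58 on arp6Δ replicates 3 and 4, the usable ones. Its listed values on replicates 1 and 2, which are not its own, are −0.30 and 0.34. On swr1Δ replicates 1 to 3 it read 0.29, −0.05 and 0.29. The usable arp6Δ values are both above the 3 swr1Δ values, an order whose share over all features was not counted. The stricter order, with all 4 arp6Δ values above all 3 swr1Δ values, held in 16.8% of 5593 features. The mean over the 2 arp6Δ arrays was 0.50 ± 0.28 (SE; adjusted p = 0.31, limma, displaced values left out), and that over the 4 listed values was 0.26 ± 0.23 (adjusted p = 0.48). In swr1Δ the mean was 0.18 ± 0.12 (adjusted p = 0.31).

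HTB1 (YDR224C), the H2B gene beside HTA1, read 0.83 and 0.88 on arp6Δ replicates 3 and 4. Its listed values on replicates 1 and 2, again those of other genes, are 0.51 and −0.01. The swr1Δ arrays gave 0.43, 0.25 and 0.07, all of them above 0 and below both usable arp6Δ values. The share of features with that order was again not counted. Over the 2 usable arp6Δ arrays the mean was 0.86 ± 0.28 (SE), which is 1.81-fold, and it did not pass the test (adjusted p = 0.14, limma). With displaced values left out, 0 of the 9 genes passed in arp6Δ, where 2.82% of 5843 features passed as higher. An unadjusted p under 0.05 (limma) was reached by 3 of the 9 genes and by 1814 of the 5843 features. In swr1Δ the mean of HTB1 was 0.25 ± 0.12 (adjusted p = 0.16).

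HTB2 (YBL002W), the other H2B gene and neighbour of HTA2, was the only measured core histone gene past the threshold in swr1Δ. It read 0.60, 0.38 and 0.31 on the 3 swr1Δ arrays, all above 0. Its mean of 0.43 ± 0.12 (SE, n = 3), a 1.35-fold rise with a 95% interval of 1.11 to 1.63, passed the test (adjusted p = 0.0428, limma). The adjusted p was 0.30 without replicate 2, 0.0951 without replicate 3 and 0.49 when all 7 arrays shared one spread, but those fits passed far fewer of all features as well, 296, 416 and 0 of 5879 against 1303. The call was also lost, at 0.0628 and 0.0677, with the arrays scaled to one spread and with quantile normalization. In contrast, those fits passed more of all features than the 1303, namely 1569 and 1379.

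On the arp6Δ arrays HTB2 read 0.97, −0.28, 0.74 and 0.85. Replicate 2 alone was below 0. The mean was 0.57 ± 0.27 (SE, n = 4; adjusted p = 0.22, limma). The difference of arp6Δ minus swr1Δ was 0.14 on the log2 scale, with a 95% interval of −0.63 to 0.91 (adjusted p = 0.81), so a difference of either sign was not resolved.

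HHF1 (YBR009C), an H4 gene, stood farthest from wild type. It read 2.89, 0.66, 1.24 and 1.33 on arp6Δ replicates 1 to 4, and 0.27, −0.19 and −0.60 on the swr1Δ arrays. All 4 arp6Δ values lay above all 3 swr1Δ values. Within each array it ranked at the 83.0th to the 98.7th percentile of the tested features in arp6Δ, and between the 13.2th and the 82.7th in swr1Δ. The arp6Δ mean was 1.53 ± 0.38 (SE, n = 4), or 2.89-fold with a 95% interval of 1.54 to 5.42, and it missed the threshold (adjusted p = 0.0637, unadjusted p = 0.0057, limma). Without replicate 1, its highest array, the mean was 1.08 and the adjusted p 0.0704. In swr1Δ the mean was −0.17 ± 0.17 (SE, n = 3; adjusted p = 0.48).

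HHF2 (YNL030W), the second H4 gene, read 1.61, 0.78, 0.64 and 0.53 on the arp6Δ arrays. Whether these values are displaced could not be checked, here or for its neighbour HHT2. The swr1Δ arrays gave 0.45, −0.38 and −0.12. Here too every arp6Δ value was above every swr1Δ value, though replicate 4 of arp6Δ and replicate 1 of swr1Δ were close. The arp6Δ mean was 0.89 ± 0.25 (SE, n = 4), or 1.85-fold with a 95% interval of 1.22 to 2.82 (adjusted p = 0.0827, limma). In swr1Δ the mean was −0.02 ± 0.17 (SE, n = 3; adjusted p = 0.95).

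The call on the H4 genes in arp6Δ depended on the fit. On the arp6Δ arrays alone, 0 of the 9 measured genes passed, where 2.09% of all 5879 features passed as higher and 3.27% as lower. An unadjusted p under 0.05 (limma) was reached by 2 of the 9 genes, HHF1 and HHF2, and by 1730 of the 5879 features. In the fit over all 7 arrays HHF1 (adjusted p = 0.0145) and HHF2 (0.0228) passed, and there 13.2% of all features passed as higher. That fit pools the wide arp6Δ with the narrow swr1Δ arrays, whose median gene SDs were 0.52 and 0.20. Both also passed with the arrays scaled to one spread, where 6.34% of features passed as higher, and after quantile normalization, where 7.01% did. The methods' t-test took both at its own unadjusted threshold with a minimum fold change (10.7% of features as higher), and after adjustment it passed no feature at all. A probe may not tell HHF1 from HHF2, nor any other pair of near-identical histone genes, since the sources used here do not give the probe design.

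The H4 genes were above wild type in both pairs of arp6Δ arrays. HHF1 averaged 1.78 on replicates 1 and 2 and 1.29 on replicates 3 and 4. The means of HHF2 there were 1.20 and 0.58. Fitted to replicates 3 and 4 alone, 5 of the 9 genes passed as higher, namely HTA1, HTB1, HTB2, HHF1 and HHF2, where 20.6% of all features did. These arrays resemble each other more than the rest, and whether they share a culture is not stated. With each pair averaged into 1 sample, the adjusted p was 0.27 for HHF1 and 0.38 for HHF2, in a fit of 2 samples that passed no feature. The share of features with all 4 arp6Δ arrays above 0, as HHF1 and HHF2 had, was also 20.6%, of 5691. All 4 arp6Δ values lay above all 3 swr1Δ values in 16.8% of 5593 features. These shares include displaced values and were not counted without them.

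**Figure D2:**
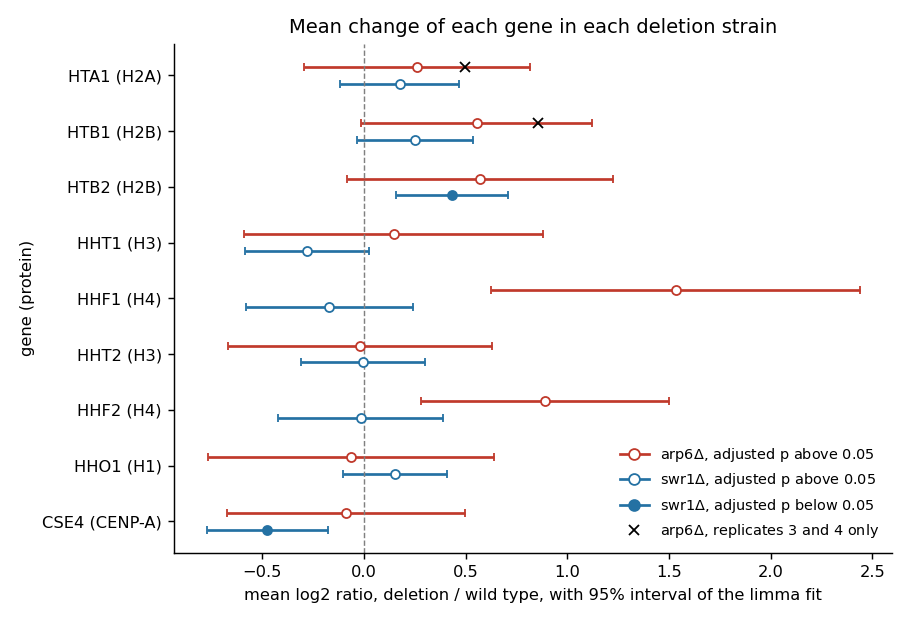
Mean log2 ratio of deletion strain over wild type (x axis) for each gene (y axis) with the 95% interval of the limma fit, arp6Δ in red (4 arrays) and swr1Δ in blue (3 arrays). Filled points passed an adjusted p of 0.05, and crosses give HTA1 and HTB1 on arp6Δ replicates 3 and 4 only. HTB2 and CSE4 in swr1Δ are the filled points, and the arp6Δ intervals of HHF1 and HHF2 lie above 0 although neither passed after adjustment.

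HHT1 (YBR010W), the H3 gene that shares its promoter region with HHF1, did not follow it. It read 0.98, 0.13, −0.74 and 0.22 on the arp6Δ arrays, so replicates 1 and 3 lay far apart on either side of 0. On swr1Δ it read −0.03, −0.32 and −0.49, all below 0. The means were 0.15 ± 0.31 in arp6Δ (SE, n = 4; adjusted p = 0.77, limma) and −0.28 ± 0.13 in swr1Δ (SE, n = 3; adjusted p = 0.15).

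HHT2 (YNL031C), the H3 gene beside HHF2, read 0.80, −0.34, −0.10 and −0.44 on the arp6Δ arrays. Replicate 1 alone was above 0. The swr1Δ arrays gave 0.19, −0.26 and 0.06. Both means were close to 0, at −0.02 ± 0.27 in arp6Δ (SE, n = 4) and 0.00 ± 0.13 in swr1Δ (SE, n = 3), with 95% intervals of −0.67 to 0.63 and −0.31 to 0.30.

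Within the divergent pairs, the H4 gene read above its H3 neighbour on every arp6Δ array, a pattern that was picked out after the values had been seen and is given without a test. HHF1 minus HHT1 was 1.92, 0.54, 1.98 and 1.11 on arp6Δ replicates 1 to 4, and 0.30, 0.13 and −0.11 in swr1Δ. HHF2 minus HHT2 was 0.81, 1.12, 0.74 and 0.97 in arp6Δ, with a mean of 0.91 ± 0.17 (SD, n = 4), and 0.26, −0.12 and −0.18 in swr1Δ. The arp6Δ and swr1Δ differences do not overlap at either locus. How often other gene pairs show this was not counted. Among single features, 16.8% of 5593 had every arp6Δ value above every swr1Δ value. The H3-H4 loci may also not be independent, since a probe may not tell their near-identical genes apart. HHF2 and HHT2 lie outside the part checked for displaced values, so only HHF1 and HHT1 are known to be in place. At the remaining measured pair, HTB1 minus HTA1 was 0.41 and 0.31 on the usable arp6Δ arrays and 0.14, 0.30 and −0.22 in swr1Δ, so the swr1Δ range reaches close to the lower arp6Δ value.

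**Figure D3:**
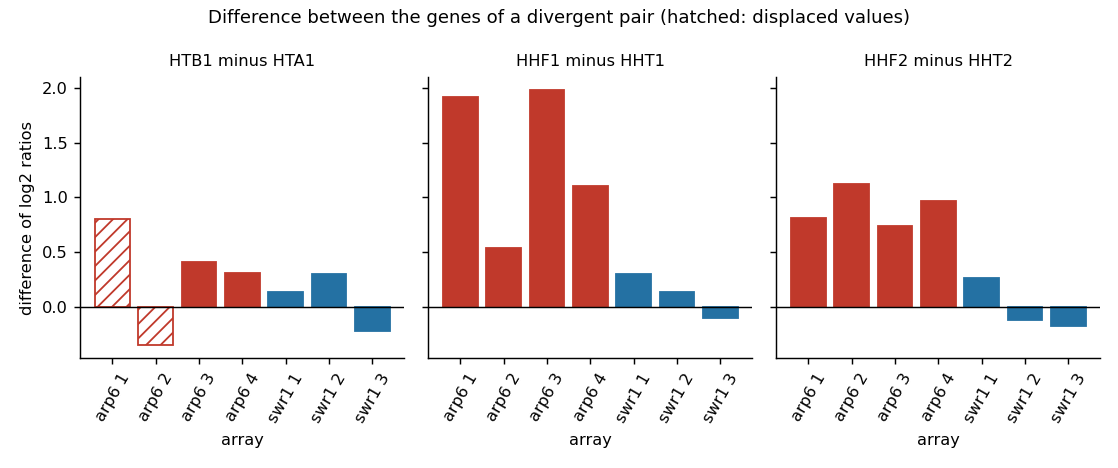
Difference of log2 ratios (y axis) between the 2 genes of a divergent pair on each array (x axis), arp6Δ in red and swr1Δ in blue, with hatched bars for differences of displaced values. HHF1 minus HHT1 and HHF2 minus HHT2 are above 0 on all 4 arp6Δ arrays, from 0.54 to 1.98 and from 0.74 to 1.12. The arp6Δ values of HHF2 and HHT2 could not be checked for displacement.

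HHO1 (YPL127C), the linker histone gene, had no common direction in arp6Δ. It read −0.85, −0.26, 0.70 and 0.14, below 0 on replicates 1 and 2 and above 0 on replicates 3 and 4. The swr1Δ arrays agreed closely at 0.21, 0.11 and 0.13, an SD of 0.05. All 3 swr1Δ arrays were above 0 for HHO1, HTB1 and HTB2, as they were for 30.8% of 5772 features. The means of HHO1 were −0.06 ± 0.29 in arp6Δ (SE, n = 4; adjusted p = 0.90, limma) and 0.15 ± 0.11 in swr1Δ (SE, n = 3; adjusted p = 0.33).

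CSE4 (YKL049C), the gene of the centromeric H3, fell in swr1Δ. It read −0.24, −0.54 and −0.64 on the 3 arrays, at the 11.0th to the 18.9th percentile of the tested features. Its mean of −0.48 ± 0.12 (SE, n = 3) is 0.72 of the wild-type level with a 95% interval of 0.59 to 0.88, and it passed the test (adjusted p = 0.0409, limma). Together with HTB2 this made 2 of the 9 genes in swr1Δ, 1 in each direction, where 11.2% of all 5879 features passed as higher and 10.9% as lower. In either direction 22.2% of features passed, so the count is near that share. All 3 swr1Δ arrays were below 0 for CSE4 and HHT1, as for 31.5% of features. CSE4 was past the threshold neither without replicate 2 (adjusted p = 0.32, limma), nor without replicate 3 (0.18), nor with one spread over all 7 arrays (0.40), the same fits in which 296, 416 and 0 of 5879 features passed. It did pass with scaled arrays (0.0258), with quantile normalization (0.0282) and without replicate 1 (0.00025). Those fits passed 1569, 1379 and 3159 of the 5879 features.

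On the arp6Δ arrays CSE4 read −0.57, −0.37, 0.34 and 0.25, with the same split between replicates 1 and 2 and replicates 3 and 4 as HHO1. The mean was −0.09 ± 0.24 (SE, n = 4; adjusted p = 0.82, limma). Arp6Δ minus swr1Δ was 0.39 for CSE4, with a 95% interval of −0.30 to 1.07 (adjusted p = 0.42), so the fall in swr1Δ is not shown to differ from arp6Δ. The methods' t-test took HTB2 at its unadjusted threshold with a minimum fold change, where 8.27% of features passed as higher in swr1Δ, and not CSE4.

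**Figure D4:**
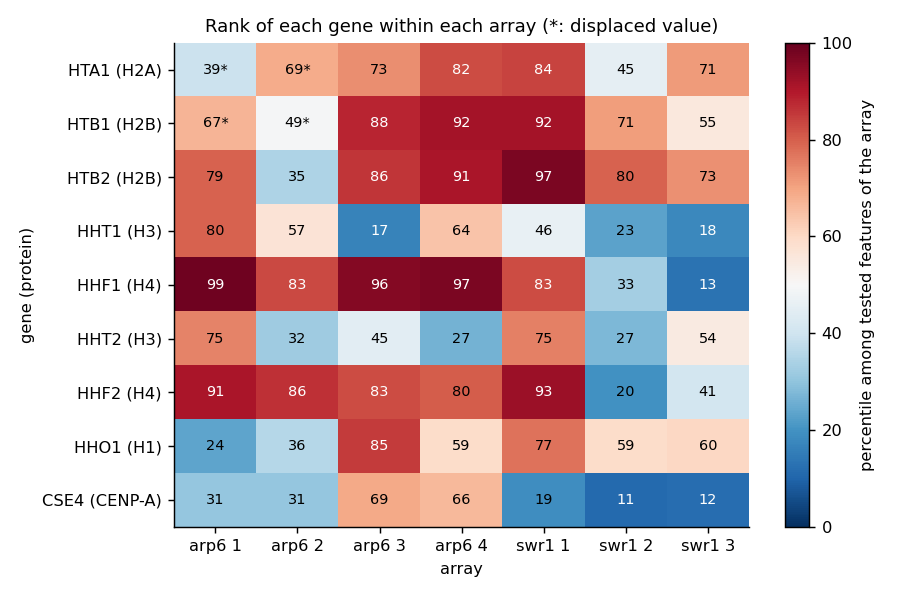
Percentile of each gene's log2 ratio among the tested features of the same array (colour and number, with higher ratios in red), with genes on the y axis and arrays on the x axis and an asterisk at displaced values. HHF1 ranks at 83 or above on the 4 arp6Δ arrays, CSE4 ranks at 19 or below on the 3 swr1Δ arrays, and HHO1 and CSE4 rank lower on arp6Δ replicates 1 and 2 than on 3 and 4.

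The mutants were compared directly with the contrast of arp6Δ minus swr1Δ over all 7 arrays, in which a fixed dye effect drops out. None of the 9 genes passed, where 3.13% of features passed as higher in arp6Δ and 3.90% as lower. An unadjusted p under 0.05 (limma) was reached by 2 of the 9 genes, HHF1 and HHF2, and by 1701 of 5879 features. HHF1 differed by 1.70 ± 0.51 (SE), or 3.26-fold with a 95% interval of 1.45 to 7.33 (adjusted p = 0.0754, limma), and HHF2 by 0.91 ± 0.34 (adjusted p = 0.12). HHF1 passed with an array weight for each mutant (adjusted p = 0.0398, with 6.14% of features higher), with scaled arrays (0.0418, 9.98%) and with quantile normalization (0.0347, 11.3%). Without arp6Δ replicate 1 or 2 its adjusted p was 0.0383 and 0.0497, in fits that passed 776 and 649 of 5879 features in either direction against 413. Without any other array it was 0.0960 to 0.29, and no alternative run brought HHF2 below the threshold. For the other genes the 95% intervals spanned 0, from −1.04 to 0.61 for HHO1, for example. With displaced values left out, HTB1 differed by 0.61, with an interval of −0.03 to 1.24 (adjusted p = 0.17), and HTA1 by 0.32, with an interval of −0.33 to 0.97 (adjusted p = 0.44).

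Taken as a group, the 7 measured core histone genes had a median of 0.55 in arp6Δ and 0.00 in swr1Δ over their mean ratios, beside medians of −0.02 and 0.00 over all features. The arp6Δ median is 0.57 with displaced values left out. On single arrays the median was 0.97, 0.13, 0.64 and 0.58 in arp6Δ and 0.29, −0.19 and 0.06 in swr1Δ. Among usable values, 5 of 5 genes were above 0 on arp6Δ replicate 1, 3 of 5 on replicate 2, 5 of 7 on replicate 3 and 6 of 7 on replicate 4. These medians cover unlike members, since the arp6Δ means run from −0.02 for HHT2 to 1.53 for HHF1.

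The mean of the core histone genes over the 7 arrays, in which the listed values of HTA1 and HTB1 on arp6Δ replicates 1 and 2 are those of other genes, was set against other genes. The genes whose ratios lay nearest to the mean of the 7 core histone genes, by root mean square difference among 5102 named genes, were RTR2 (0.12), ERD1 (0.12), BTS1 (0.13), HEL2 (0.13) and MLC2 (0.14). The median gene was at 0.76. The histone genes themselves were at 0.33 for HTB1 to 0.85 for HHF1, so each was farther from their common mean than these 5 genes. The 5 were picked for closeness, which says nothing of shared control. ERD1 lies in a displaced stretch, and BTS1 and MLC2 could not be checked.

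Genes that act on the histone genes or their products were read from lists, whose counts stand beside the shares over all features, 2.09% higher and 3.27% lower in arp6Δ and 11.2% higher and 10.9% lower in swr1Δ. Of 15 regulators of histone genes, 0 passed in arp6Δ and 1 in swr1Δ, as lower, where 10.9% of all features were lower, with medians of −0.12 and −0.18. RTT106, which represses histone genes outside S phase, fell to 0.66 of wild type in swr1Δ (adjusted p = 0.0278, limma), at −0.33, −0.68 and −0.76 on its 3 arrays. In arp6Δ the nearest to the threshold were SWI6, a subunit of SBF and MBF, at 0.45 (adjusted p = 0.18) and YTA7, which acts at histone genes, at −0.53 (adjusted p = 0.24).

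Of 10 histone chaperones and assembly factors, 0 passed in arp6Δ, and in swr1Δ 1 rose and 2 fell, where 11.2% and 10.9% of all features did. POB3, a subunit of the chaperone FACT, fell to 0.55 of wild type, at −0.88, −0.87 and −0.88 on the 3 arrays. CHZ1, a chaperone of Htz1 with H2B, fell to 0.56, and NAP1, a chaperone of H2A and H2B, rose 1.49-fold. In arp6Δ RLF2, a subunit of the H3-H4 chaperone CAF-1, read 0.41 (adjusted p = 0.21) and HTZ1, the H2A variant gene itself, −0.41 (adjusted p = 0.21). Of 5 tested genes of histone RNA and protein turnover, TRF5, a poly(A) polymerase of RNA surveillance, fell to 0.58 in swr1Δ. None passed in arp6Δ, where LSM1, of the RNA decapping pathway, read 0.69 (adjusted p = 0.11) and TRF5 0.51 (adjusted p = 0.19).

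Beside CSE4, 12 of 13 listed partners of Cse4 and inner kinetochore genes were tested, and 1 fell in each mutant, where 3.27% of all features fell in arp6Δ and 10.9% in swr1Δ. The count in swr1Δ is near that share. OKP1, of the COMA complex, fell to 0.70 of wild type in swr1Δ (adjusted p = 0.0441, limma). CTF19, of the same complex, fell to 0.39 in arp6Δ (adjusted p = 0.0486), at −2.29, −1.01, −1.30 and −0.89 on the 4 arrays. The medians of the list were −0.26 in swr1Δ and −0.15 in arp6Δ.

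Since histone transcription follows the cell cycle, the genes of neighbouring phases are given beside it, and their part in the histone values was not tested. Of 20 tested G1/S genes, 1 rose in arp6Δ and 4 in swr1Δ, where 2.09% and 11.2% of all features did. None fell, and the medians were 0.43 and 0.09. SVS1, a cell wall gene, rose 3.32-fold in arp6Δ, at 1.83, 1.23, 2.15 and 1.71, and 1.68-fold in swr1Δ. The others in swr1Δ were CLB6, an S-phase cyclin (1.46-fold), YOX1, a repressor of early cell cycle genes (1.48-fold), and HCM1, an S-phase transcription factor (1.32-fold).

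Of 11 tested G2/M genes, CLB1, a mitotic cyclin, fell to 0.44 of wild type in arp6Δ, at −1.29, −1.26, −1.15 and −1.06. None passed in swr1Δ, where CDC5, the polo kinase, read −0.49 (adjusted p = 0.0775, limma) and CLB2, a mitotic cyclin, −0.35 (adjusted p = 0.26). Of 14 M/G1 genes, 7 rose and 1 fell in swr1Δ, where 11.2% and 10.9% of all features did, with a median of 0.40. CTS1, a chitinase, rose 2.20-fold, and EGT2 and DSE2, both of daughter cell separation, rose 2.05-fold. PIR1, a cell wall protein, rose 1.69-fold. None of the 14 passed in arp6Δ, where the median was 0.25, SIC1, a Cdk inhibitor, read −1.01 (adjusted p = 0.0560) and DSE2 1.17 (adjusted p = 0.17).

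In the arp6Δ columns, between 0 and 3 tested genes of each list lay in displaced stretches, and none of the list genes named was among them. Most of these named genes lie outside the part that could be checked. Leaving the displaced values out changed 1 of the arp6Δ counts, that of M/G1 genes, in which 1 then passed as lower.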

How the data were processed

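The deposited table holds a log2 ratio (deletion strain over wild type) for each probe on each array. The authors had normalised it, with array medians within 0.01 of 0. The base and direction were read from the values and the dyes. The scanner, background correction and normalisation method are not given in the sources used, and without spot intensities the signal over background is unknown, so the number of arrays limits the precision. Names came from GEO's platform annotation, updated through the RefSeq gene table (R64) by gene ID, and probes of a gene were averaged.

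Features with values on 2 or more arrays of both mutants were tested (5879, of which 5344 were named genes). The fits used limma 3.58.1 (lmFit, eBayes) under R 4.3.3, each mutant on its own arrays against 0 and the contrast of the mutants over all 7, two-sided, with Benjamini-Hochberg adjustment at 0.05. Own-array fits were taken because the study tested each mutant on its own arrays and because the arp6Δ arrays vary more. This choice, the genes and the lists were made with earlier results of these data known, among them that HHF1 and HHF2 pass over all 7 arrays. The fit was tested on simulated data with independent errors on each array. These held neither the likeness within pairs of arp6Δ arrays nor displaced values, so that test does not cover them. Where nothing says that arrays came from separate cultures, p-values measure only the spread between arrays.

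Named are all members, up to 4 passing genes per list and mutant or else the 2 with the smallest p, the 5 genes nearest the mean of the core histone genes, and ARP6 and SWR1. Displaced values were listed by comparison with the means in the study's supplement, of which only a part was used here, and only the names of those genes were kept. Values stayed as deposited unless stated. No sequences are printed. Tables and plots were made with Python 3.11.15, numpy 2.4.6, pandas 2.3.3 and matplotlib 3.10.9.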

Additional observations from a re-analysis of the deposited data

How the results depend on the processing

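The number of the 9 measured genes that passed was the least stable value. In arp6Δ it was 0, and it became 2 over all 7 arrays, 2 with scaled arrays, 2 with quantile normalization, 2 by the methods' t-test at its unadjusted threshold and 5 on replicates 3 and 4 alone. Leaving out 1 array at a time gave 0 throughout, in fits that passed only 0 to 70 of 5879 features, so this says nothing about stability. In swr1Δ it was 2. It became 0 over all 7 arrays and 0 by the methods' t-test after adjustment, neither of which passed any of the 5879 features. By that test at its unadjusted threshold it was 1 (HTB2), and with scaled arrays or quantile normalization it was 1 (CSE4). Leaving out 1 swr1Δ array gave 0 to 4: none without replicate 2 or 3, where 296 and 416 of 5879 features passed, and HTB2, CSE4, HHF1 and HHT1 without replicate 1, where 3159 (53.7%) passed. For arp6Δ minus swr1Δ it was 0, and 1 (HHF1) with scaled arrays, with quantile normalization and with array weights, and 0 to 1 when an array was left out. The cause of these shifts was not tested. The medians of the core histone genes moved by less than the SD between arrays with scaled arrays, with quantile normalization and with displaced values left out. Leaving out 1 array gave the same. Taking 1 array from a mean can hardly shift it by that SD, so this says nothing about stability.

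With replicate number as a block (replicate block), 0 of the 9 genes passed in the contrast, and the calls over all features went from 413 to 2. Same-numbered arrays of the mutants did not deviate together (r of 0.02, 0.05 and −0.05), so the numbers do not pair the arrays.

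None of the values whose sign turned had passed the test as planned. On arp6Δ replicates 3 and 4 alone, HHT1 was −0.26, HHO1 0.42 and CSE4 0.29, and on replicates 1 and 2 alone HHT2 was 0.23. With scaled and quantile normalized arrays, HHO1 in arp6Δ was 0.0217 and 0.0237, HHT2 in swr1Δ 0.0458 and 0.0356, HHF2 in swr1Δ 0.11 and 0.0823, HTA1 in the contrast −0.0420 and −0.0232, HTB2 in the contrast −0.30 and −0.27, and HTB1 in the contrast −0.0031 with scaling. With the block, HTA1 was −0.0209 and HHT2 0.12 in the contrast. Leaving out 1 array gave −0.13 to 0.44 for HHT1, −0.29 to 0.12 for HHT2, −0.32 to 0.20 for HHO1 and −0.23 to 0.0720 for CSE4 in arp6Δ. In swr1Δ it gave −0.40 to 0.0402 for HHF1, −0.10 to 0.12 for HHT2 and −0.25 to 0.17 for HHF2. In the contrast it gave −0.0283 to 0.27 for HTA1, −0.29 to 0.12 for HHT2 and −0.47 to 0.0456 for HHO1.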
